A study of Mus musculus with 18 samples.

Results

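The transforming growth factor beta (TGF-beta) and bone morphogenetic protein (BMP) signalling genes of the mouse kidney were followed through 14 days after a nephrotoxic dose of folic acid. They are 10 genes, taken by symbol from the 37991 gene identifiers of the count tables: the ligands Tgfb1, Tgfb2, Tgfb3, Inhba and Bmp7, the receptors Tgfbr1 and Tgfbr2, the signal mediator Smad3, the intracellular inhibitor Smad7 and the secreted BMP antagonist Grem1. All 10 were found once each, and all 10 passed the filter on low counts that left 16824 genes for testing. Set against untreated kidney, Smad7 rose at day 1, Grem1 at day 3, Tgfb2 at day 7 and Tgfbr1 at days 3 and 7, and no member fell at any day. Each of these calls was lost when 1 of certain libraries was left out, as given beside it.

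TGF-beta is secreted in a latent form bound to matrix and is released by integrins, thrombospondin or proteases. The active ligand brings together a type II and a type I serine/threonine kinase receptor, which phosphorylate SMAD2 and SMAD3, and these enter the nucleus with SMAD4 and switch on matrix genes, while BMP ligands act in the same way through SMAD1, SMAD5 and SMAD9. In the kidney, TGF-beta is known as a driver of scarring, and BMP7 as a factor of nephron development that opposes it.

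The 18 libraries, 3 in each of 6 groups, were made from whole-kidney RNA of male Balb/c mice. The groups were untreated mice and mice killed 1, 2, 3, 7 or 14 days after 250 mg/kg folic acid, injected intraperitoneally once in 0.3 M sodium bicarbonate. Folic acid at such a dose injures the renal tubule, and scarring follows. The untreated mice had no treatment by their labels, and in no group was bicarbonate given by itself, so the effects of solvent and folic acid cannot be told apart. Whether each library is its own animal is not stated, and the p-values therefore measure only how these samples vary.

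Each library held 8.68 to 54.6 M (1e6) reads in genes, the fewest in day 2 replicate 2, and 59.0 to 75.6% of them lay in the 37 genes of the mitochondrial genome, which left 2.83 to 17.2 M for all other genes. No library was a copy of another in its group. Markers of proximal tubule, loop of Henle, podocyte and endothelium were read in all 18 libraries, and Cyp11b1 and Cyp11b2 of the adrenal cortex had no read in any. The labels do not say whether counting used strand. Tgfb2 and Tgfb3 have exons that lie opposite exons of Gm29491 and of Gm37804 and Gm48008 on the other strand, so their counts are uncertain. In whole tissue, fewer cells of a type and less RNA per cell cannot be told apart.

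Promoter windows of 250 bases before to 50 bases after the start of transcription were matched by symbol in RefSeq (GRCm38.p6) for 7 of the 10 members. The 250 bases before the start are shown for Tgfb2, Tgfbr1 and Grem1, the members with a window that rose at some day, so that their letters can be read beside the levels. Capitals mark the SMAD box CAGAC and the BMP-type SMAD element GGCGCC, read on both strands.
Tgfb2 (chr1:186705990-186706239, minus strand): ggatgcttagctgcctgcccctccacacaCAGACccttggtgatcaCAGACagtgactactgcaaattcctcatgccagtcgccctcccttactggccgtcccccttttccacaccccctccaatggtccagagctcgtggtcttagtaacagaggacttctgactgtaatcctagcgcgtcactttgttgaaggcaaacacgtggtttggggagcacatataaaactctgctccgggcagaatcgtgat
Tgfbr1 (chr4:47352972-47353221, plus strand): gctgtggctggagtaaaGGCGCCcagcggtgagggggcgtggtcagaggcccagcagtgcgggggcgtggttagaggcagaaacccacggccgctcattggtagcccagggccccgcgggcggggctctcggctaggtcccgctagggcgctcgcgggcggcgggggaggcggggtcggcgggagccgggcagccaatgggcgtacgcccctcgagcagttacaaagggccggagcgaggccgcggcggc
Grem1 (chr2:113758649-113758898, minus strand): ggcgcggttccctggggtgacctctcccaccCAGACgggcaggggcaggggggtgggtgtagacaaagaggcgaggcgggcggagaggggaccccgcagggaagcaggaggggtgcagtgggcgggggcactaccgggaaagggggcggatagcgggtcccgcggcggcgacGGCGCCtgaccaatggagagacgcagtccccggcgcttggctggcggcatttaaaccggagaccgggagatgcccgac
The Tgfb2 window held CAGAC at bases -221 and -204 from the start, the printed Tgfbr1 window held GGCGCC at -233, and the Grem1 window held CAGAC at -219 and GGCGCC at -78, with another CAGAC at base 18 after the start. CAGAC was present in 49.6% and GGCGCC in 11.9% of all 32817 windows, so a CAGAC in a window is common. A further Tgfbr1 window in the table (chr4:47385966-47386265, not printed) held CAGAC at -203 and no GGCGCC. Of the members with a window that were not called at any day, Tgfbr2 held CAGAC at -160, and Tgfb1, Inhba and Smad3 held neither motif. None of the 3 printed windows held the AP-1 element TGANTCA, found in 7.81% of windows, or the cyclic AMP element TGACGTCA, found in 1.79%. A match describes letters and does not show binding.

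Over all 6 groups together, 3 of the 10 members differed at an adjusted p under 0.05 (edgeR quasi-likelihood F test), against 19.7% of all genes tested. These were Grem1 (adjusted p = 0.00757), Tgfb2 (adjusted p = 0.0218) and Smad7 (adjusted p = 0.0305), while Tgfbr1 had an adjusted p of 0.09. Adjustment was by Benjamini-Hochberg over all 16824 genes, as for every adjusted p below unless another tool, setting or left-out library is named. Fits with a library left out, without the mitochondrial genes, without the filter or on the compared groups alone were adjusted over the genes they kept. Grem1 passed in all 18 fits without 1 library. Tgfb2 did not pass without day 7 replicate 1 (adjusted p = 0.175), with limma-voom (0.114) or with the replicate number as a block (0.0811). Smad7 did not pass without untreated replicate 1, 2 or 3 (adjusted p = 0.0669, 0.0623 and 0.065), day 1 replicate 1 or 3 (0.0724 and 0.0908), or day 14 replicate 1 or 2 (0.0582 and 0.0526), nor with library totals alone as scaling (0.053) or the block (0.0542).

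At day 1, 1 of 10 members rose and 0 fell, where 5.09% of all genes tested rose and 5.56% fell. At day 2, edgeR called 0 of 10 in either direction, where 7.19% of all genes rose and 5.98% fell, and 3 members were higher and 0 lower at an unadjusted p under 0.05. DESeq2 called 2 members and limma-voom 0 at that day, where they called 3001 and 1635 of all genes and edgeR called 2216. At day 3, 2 of 10 rose and 0 fell, where 4.18% of all genes rose and 3.43% fell. At day 7, 2 of 10 rose and 0 fell, where 3.87% of all genes rose and 3.85% fell. At day 14, edgeR called 0 of 10 in either direction, where 1.24% of all genes rose and 0.309% fell. There, 4 members were higher and 0 lower at an unadjusted p under 0.05. The share of all genes at that unadjusted threshold was not counted for day 2 or day 14, so whether these member counts exceed it cannot be told. At day 14 limma-voom also called 0 of 10, and DESeq2 called 0 of the members it gave an adjusted p. They called 182 and 922 of all genes, against 260 in edgeR. DESeq2 gave no adjusted p for Grem1 in other comparisons, so its counts at days 2 and 14 may leave Grem1 out. The median log2 fold change of the 10 members was 0.53, 0.56, 0.93, 0.71 and 0.54 at days 1, 2, 3, 7 and 14, beside 0.046, 0.034, 0.066, 0.064 and 0.041 over all genes tested. The 5 comparisons share the same 3 untreated libraries.

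**Figure D1:**
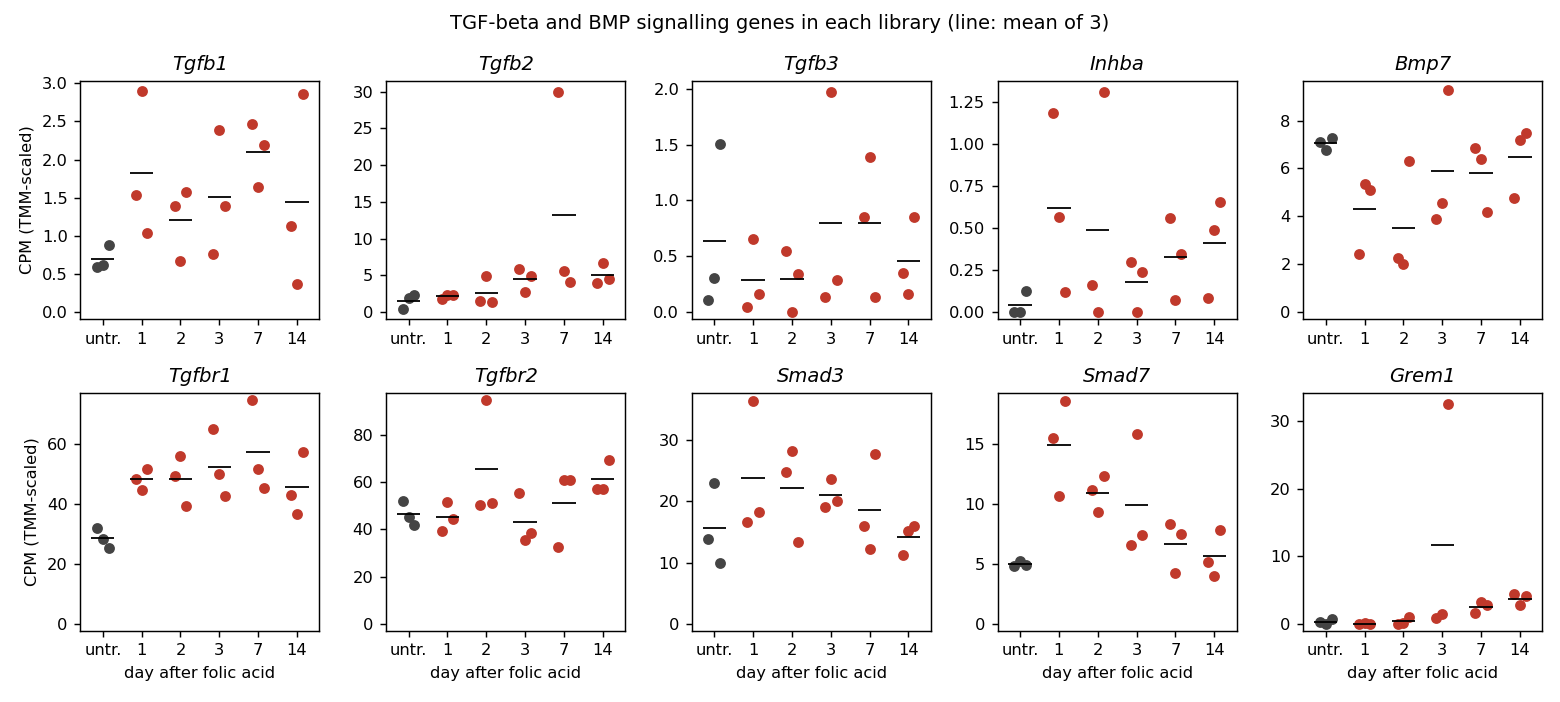
Level of each member in each library, in CPM (reads per 1e6, TMM-scaled) on the vertical axis of its own panel, by untreated kidney (dark) and day after folic acid (red), with a line at the mean of 3 libraries. The Tgfbr1 points after folic acid all lie above the 3 untreated points, Smad7 is highest at day 1, and a single library holds the top value of Tgfb2 (29.96 CPM, day 7) and of Grem1 (32.56 CPM, day 3).

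Tgfb1 (ENSMUSG00000002603, chromosome 7) encodes the TGF-beta ligand most often tied to kidney scarring, and its transcript was scarce. It had 0.598, 0.618 and 0.877 CPM in untreated kidney, 1.53, 2.90 and 1.03 at day 1, and 1.39, 0.676 and 1.58 at day 2. It had 0.763, 2.39 and 1.39 CPM at day 3, 2.47, 1.64 and 2.19 at day 7, and 1.13, 0.365 and 2.85 at day 14. All day 1 and day 7 libraries were above all untreated ones, and the other days overlapped with untreated kidney. The mean was 2.10 ± 0.421 CPM at day 7 and 0.698 ± 0.156 CPM in untreated kidney (SD, n = 3 each, as for every mean below), a log2 difference of 1.59 ± 0.68 (fitted value ± SE) that missed the threshold (adjusted p = 0.173). At day 1 the mean was 1.82 ± 0.968 CPM and the adjusted p was 0.218. The 3 untreated libraries together held 51 Tgfb1 reads.

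Tgfb2 (ENSMUSG00000039239, chromosome 1), another TGF-beta ligand, rose at day 7. It had 0.381, 1.97 and 2.38 CPM in untreated kidney, 1.84, 2.32 and 2.37 at day 1, and 1.47, 4.90 and 1.35 at day 2. It had 5.87, 2.69 and 4.91 CPM at day 3, 29.96, 5.63 and 4.06 at day 7, and 3.99, 6.65 and 4.48 at day 14. From day 3 on, every library was above every untreated one, and day 7 replicate 1 stood far above all others. At day 7 the mean was 13.2 ± 14.5 CPM, against 1.58 ± 1.06 CPM in untreated kidney, a fitted log2 fold change of 3.06 ± 0.75 (adjusted p = 0.0172). Without day 7 replicate 1, untreated replicate 1 or untreated replicate 2, the log2 fold change was 1.61, 2.60 and 3.27. The adjusted p in these edgeR fits was 0.199, 0.0737 and 0.053, and the call was lost in each. Without untreated replicate 2 the log2 value was above that of the main fit. Such a fit has fewer libraries and its own filter, so a lost call does not by itself show dependence on that library. A fit on the day 7 and untreated libraries alone gave an adjusted p of 0.0609. At days 3 and 14 the log2 differences were 1.50 ± 0.72 (adjusted p = 0.226) and 1.67 ± 0.72 (adjusted p = 0.263).

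The macrophage and monocyte marker list (Adgre1, Csf1r, Cd68, Itgam, Ly6c2, Lyz2) was also high from day 3 on. Its summed level was 20.7 to 42.3 CPM in untreated kidney, 19.8 to 39.6 at day 1, 25.7 to 39.8 at day 2, 75.4 to 95.6 at day 3, 150 to 260 at day 7 and 143 to 264 at day 14. Of the 5 of 6 markers tested, 1 rose and 1 fell at each of days 1 and 2, and 3 rose and 0 fell at each of days 3, 7 and 14. No marker was without reads in any group. Day 7 replicate 1, with the highest Tgfb2 level (29.96 CPM), had a macrophage sum of 188 CPM. The highest sum of that day, 260 CPM, was in replicate 2, where Tgfb2 was at 5.63 CPM. The part of these cells in the Tgfb2 values was not tested.

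Tgfb3 (ENSMUSG00000021253, chromosome 12), the remaining TGF-beta ligand, was close to the limit of reading. It had 0.109, 0.309 and 1.50 CPM in untreated kidney, 0.0437, 0.652 and 0.159 at day 1, and 0.550, 0 and 0.346 at day 2. It had 0.133, 1.97 and 0.289 CPM at day 3, 0.855, 1.39 and 0.139 at day 7, and 0.347, 0.162 and 0.856 at day 14. Every day overlapped with untreated kidney, and the spread within a group was wider than any difference between groups. The library with no read, day 2 replicate 2, was the shallowest, and 3 reads there would be 0.507 CPM. The log2 differences from untreated kidney lay between -1.09 ± 1.22 at day 1 and 0.34 ± 1.19 at day 7, with adjusted p = 0.651 and 0.911.

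Inhba (ENSMUSG00000041324, chromosome 13) encodes the beta A subunit of activin, a ligand that also signals through SMAD2 and SMAD3. It had 0, 0 and 0.125 CPM in untreated kidney, 2 reads in all, and 1.18, 0.562 and 0.119 CPM at day 1, 58 reads. It had 0.163, 0 and 1.31 CPM at day 2, 0.299, 0 and 0.236 at day 3, 0.559, 0.0713 and 0.347 at day 7, and 0.0867, 0.487 and 0.652 at day 14. At least 1 library of every day lay at or below the highest untreated one, so every day overlapped with untreated kidney. In the 4 libraries without a read, 3 reads would be 0.163 and 0.0713 CPM (untreated replicates 1 and 2), 0.507 CPM (day 2 replicate 2) and 0.114 CPM (day 3 replicate 2). In edgeR its smallest adjusted p was 0.129, at day 1. Its fitted fold changes against untreated kidney, drawn in the plot of fold changes by day, rest on 2 untreated reads.

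Bmp7 (ENSMUSG00000008999, chromosome 2), the BMP ligand of the nephron, had a lower mean than untreated kidney at every day with TMM scaling, and none of these differences passed. It had 7.12, 6.75 and 7.27 CPM in untreated kidney, 2.45, 5.35 and 5.11 at day 1, and 2.26, 2.03 and 6.30 at day 2. It had 3.88, 4.55 and 9.29 CPM at day 3, 6.87, 6.41 and 4.20 at day 7, and 4.77, 7.18 and 7.50 at day 14. All day 1 and day 2 libraries were below all untreated ones, and the later days overlapped with them. At day 2 the mean was 3.53 ± 2.40 CPM, against 7.05 ± 0.264 CPM in untreated kidney, a log2 difference of -0.97 ± 0.48 that did not pass (adjusted p = 0.2). At day 1 the log2 difference was -0.71 ± 0.47 (adjusted p = 0.397). The loop and distal tubule marker list (Umod, Slc12a1, Slc12a3, Pvalb, Calb1), a part of the nephron, was low at the same days, at 205 to 389 CPM at day 1 and 262 to 373 CPM at day 2 against 1344 to 1944 CPM in untreated kidney, with 5 and 4 of its 5 markers fallen. It was also low at day 3, at 442 to 756 CPM with 5 of 5 fallen, where Bmp7 overlapped with untreated kidney (log2 -0.25). Its part in the Bmp7 values was not tested.

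Tgfbr1 (ENSMUSG00000007613, chromosome 4), the type I receptor that phosphorylates SMAD2 and SMAD3, rose at days 3 and 7. It had 32.2, 28.5 and 25.3 CPM in untreated kidney, 48.4, 44.8 and 51.9 at day 1, and 49.6, 56.1 and 39.6 at day 2. It had 65.1, 49.97 and 42.7 CPM at day 3, 74.8, 51.7 and 45.5 at day 7, and 43.2, 36.7 and 57.4 at day 14. All 15 libraries after folic acid were above all 3 untreated ones, and the days overlapped with each other. At day 3 the mean was 52.6 ± 11.4 CPM, against 28.7 ± 3.44 CPM in untreated kidney, a log2 fold change of 0.88 ± 0.26 (adjusted p = 0.0445). At day 7 the mean was 57.4 ± 15.5 CPM and the log2 fold change 1.00 ± 0.26 (adjusted p = 0.0228). At days 1, 2 and 14 the differences had about the same size, with log2 values of 0.76 ± 0.26, 0.75 ± 0.26 and 0.68 ± 0.26, and missed the threshold (adjusted p = 0.0696, 0.0609 and 0.198).

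Both Tgfbr1 calls were close to the threshold. The day 3 call was lost without untreated replicate 1, 2 or 3 (log2 0.95, 0.85 and 0.77, adjusted p = 0.0862, 0.127 and 0.157) and without day 3 replicate 1 or 2 (0.69 and 0.91, adjusted p = 0.176 and 0.0943). The day 7 call was lost without untreated replicate 1, 2 or 3 (log2 1.09, 0.99 and 0.91, adjusted p = 0.0509, 0.0776 and 0.0927) and without day 7 replicate 1 (0.76, adjusted p = 0.14). At day 3, RLE size factors (adjusted p = 0.056), leaving out the mitochondrial genes (0.0524), no filter on low counts (0.0811), limma-voom (0.0549), the replicate block (0.0571) and a fit on the compared groups alone (0.0605) also ended the call, while library totals alone raised the log2 value to 1.46. The proximal tubule marker list was low at days 3 and 7, at 1256 to 1534 CPM and 849 to 1225 CPM against 3014 to 3810 CPM in untreated kidney, with 5 of 5 markers fallen at both. It was also low at days 1 and 2, at 632 to 754 and 905 to 960 CPM with 4 and 5 of 5 fallen. At those days the Tgfbr1 log2 values of 0.76 and 0.75 missed the threshold, but were not far from the 0.88 of day 3. The part of this list in the Tgfbr1 values was not tested.

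Tgfbr2 (ENSMUSG00000032440, chromosome 9), the type II receptor that binds the ligand and activates TGFBR1, did not pass at any day. It had 52.3, 45.1 and 41.9 CPM in untreated kidney, 39.5, 51.7 and 44.2 at day 1, and 50.3, 94.8 and 51.4 at day 2. It had 55.5, 35.6 and 38.5 CPM at day 3, 32.4, 60.8 and 60.95 at day 7, and 57.1, 57.3 and 69.4 at day 14. The 3 day 14 libraries were above the untreated ones, every other day overlapped with them, and day 2 replicate 2, the shallowest library, was the highest of all. The log2 differences from untreated kidney were -0.040, 0.49, -0.10, 0.15 and 0.40 at days 1, 2, 3, 7 and 14, with SE between 0.293 and 0.295 and adjusted p between 0.302 and 0.957. At day 1 the 95% interval was -0.655 to 0.575.

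Smad3 (ENSMUSG00000032402, chromosome 9), the receptor-activated mediator of the TGF-beta signal, did not pass at any day. It had 13.9, 22.95 and 9.96 CPM in untreated kidney, 16.6, 36.4 and 18.2 at day 1, and 24.9, 28.2 and 13.3 at day 2. It had 19.1, 23.7 and 20.1 CPM at day 3, 15.98, 12.2 and 27.8 at day 7, and 11.2, 15.2 and 16.0 at day 14. Every day overlapped with untreated kidney. The log2 difference was 0.60 ± 0.40 at day 1 (adjusted p = 0.391) and -0.14 ± 0.40 at day 14 (adjusted p = 0.917).

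Smad7 (ENSMUSG00000025880, chromosome 18), which blocks the type I receptor and is itself switched on by TGF-beta, rose at day 1. It had 4.84, 5.23 and 4.89 CPM in untreated kidney, 15.4, 10.6 and 18.5 at day 1, and 11.1, 9.30 and 12.3 at day 2. It had 6.57, 15.8 and 7.40 CPM at day 3, 8.32, 4.28 and 7.46 at day 7, and 5.16, 4.01 and 7.83 at day 14. All libraries of days 1, 2 and 3 were above all untreated ones, while days 7 and 14 overlapped with them. At day 1 the mean was 14.9 ± 3.99 CPM, against 4.99 ± 0.214 CPM in untreated kidney, a log2 fold change of 1.57 ± 0.40 (adjusted p = 0.0148). Without untreated replicate 1, untreated replicate 3 or day 1 replicate 3 the log2 value was 1.55, 1.55 and 1.39 and the adjusted p 0.0576, 0.0555 and 0.0612. At days 2 and 3 the log2 differences of 1.13 ± 0.40 and 0.99 ± 0.39 missed the threshold (adjusted p = 0.0666 and 0.135), and at days 7 and 14 they were 0.42 ± 0.39 and 0.18 ± 0.39 (adjusted p = 0.597 and 0.888).

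Grem1 (ENSMUSG00000074934, chromosome 2) encodes gremlin 1, a secreted protein that binds and neutralises BMP2, BMP4 and BMP7, and its mean level was highest from day 3 on. It had 0.272, 0 and 0.752 CPM in untreated kidney, 0.0437, 0.0900 and 0 at day 1, and 0, 0.169 and 1.08 at day 2. It had 0.862, 1.48 and 32.56 CPM at day 3, 1.61, 3.24 and 2.74 at day 7, and 4.38, 2.76 and 4.08 at day 14. All libraries of days 3, 7 and 14 were above all untreated ones, days 1 and 2 overlapped with them, and day 3 replicate 3 stood far above every other library. In the 3 libraries without a read, 3 reads would be 0.0713 CPM (untreated replicate 2), 0.0597 CPM (day 1 replicate 3) and 0.0611 CPM (day 2 replicate 1). The untreated libraries held 17 Grem1 reads together, the day 1 libraries 5 and the day 3 libraries 1306.

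At day 3 Grem1 averaged 11.6 ± 18.1 CPM, against 0.341 ± 0.381 CPM in untreated kidney, a fitted log2 fold change of 5.24 ± 1.50 (adjusted p = 0.0383). Without day 3 replicate 3 the log2 value was 1.88 and the adjusted p 0.457. Without untreated replicate 1, 2 or 3 it was 5.16, 4.50 and 6.71, with adjusted p = 0.124, 0.122 and 0.0593, and limma-voom gave 0.109, the replicate block 0.0593 and a fit on the compared groups alone 0.0901. At days 7 and 14, where the 3 libraries lay closer together, Grem1 averaged 2.53 ± 0.836 and 3.74 ± 0.863 CPM, with log2 differences from untreated kidney of 3.04 ± 1.40 and 3.60 ± 1.42 that missed the threshold (adjusted p = 0.214 and 0.215).

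The fibroblast and myofibroblast marker list (Pdgfra, Pdgfrb, Acta2, Col1a1, Postn, Dcn) had its highest median sums at days 3, 7 and 14, when Grem1 was high. The sums of day 3 overlapped with those of day 2. Its summed level was 25.5 to 49.3 CPM in untreated kidney, 36.9 to 69.7 at day 1, 37.0 to 94.1 at day 2, 66.8 to 248 at day 3, 89.5 to 165 at day 7 and 101 to 188 at day 14. Of its 6 markers, 1, 2, 1, 2 and 1 rose and 1, 2, 0, 0 and 0 fell at days 1, 2, 3, 7 and 14, and none was without reads in any group. The 1 marker that rose at days 1, 3 and 14 was Col1a1. The library with the highest Grem1 level, day 3 replicate 3, had the lowest fibroblast sum of its group, 66.8 CPM, and the highest sum, 248 CPM, was in day 3 replicate 2, where Grem1 was at 1.48 CPM. The part of these cells in the Grem1 values was not tested.

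**Figure D2:**
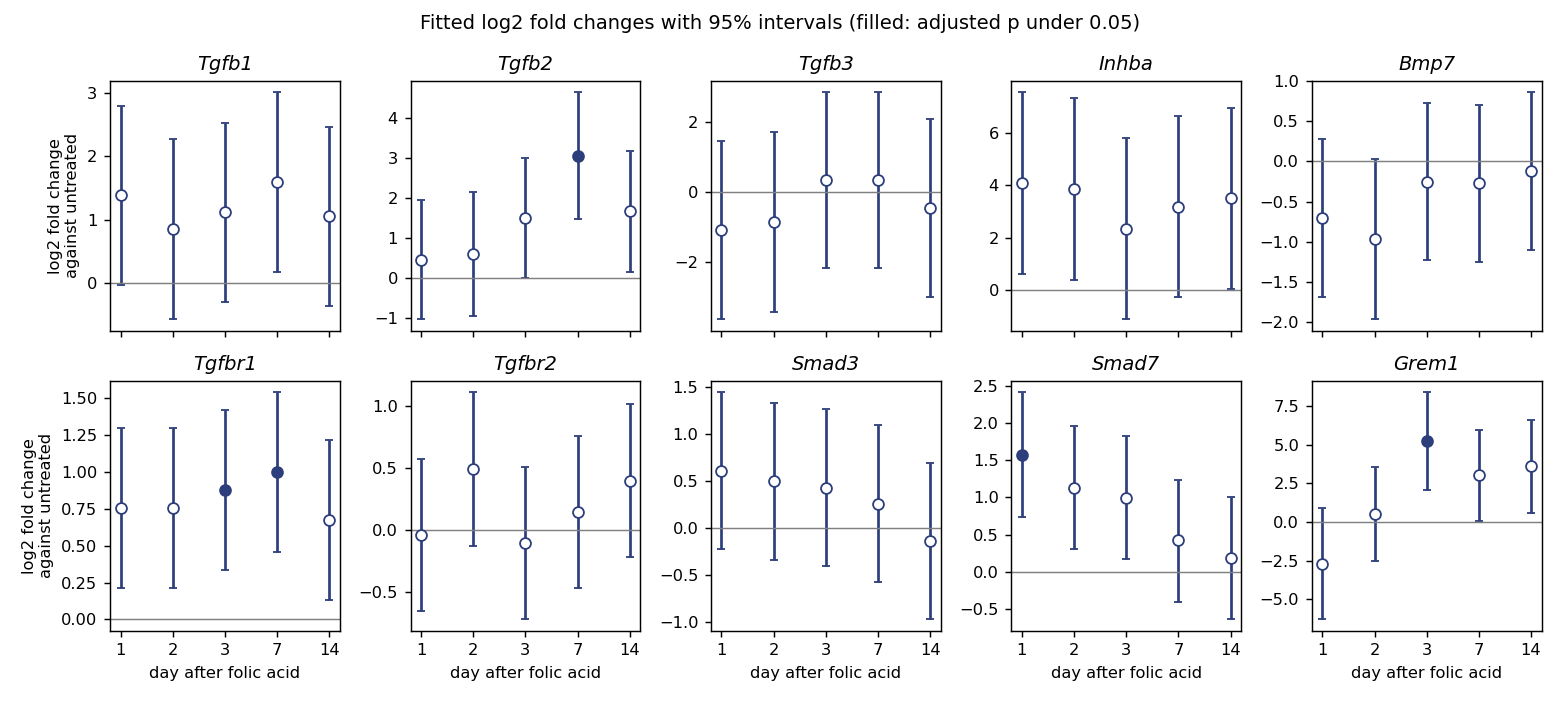
Fitted log2 fold change of each member against untreated kidney with its 95% interval, by day after folic acid, each panel with its own vertical scale and filled points where the adjusted p was under 0.05. The filled points are Smad7 at day 1, Tgfbr1 at days 3 and 7, Grem1 at day 3 and Tgfb2 at day 7, and the Inhba values rest on 2 untreated reads.

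Between consecutive times, edgeR called 0 of 10 members at each of the 4 steps. Of all genes tested, 0.0594% changed at day 2 against day 1, 0.25% at day 3 against day 2, 0.0178% at day 7 against day 3 and 0.0178% at day 14 against day 7. With limma-voom, 0 members were also called at each step. DESeq2 called 0 of the members it gave an adjusted p, which may leave Grem1 out. At the successive steps edgeR called 10, 42, 3 and 3 of all genes, DESeq2 515, 724, 217 and 147, and limma-voom 8, 12, 11 and 3. At an unadjusted p under 0.05, 0 members were higher or lower at the first and last step. At that threshold 1 member was higher at each of the other steps, Grem1 at day 3 against day 2 (11.6 ± 18.1 and 0.415 ± 0.579 CPM) and Tgfb2 at day 7 against day 3 (13.2 ± 14.5 and 4.49 ± 1.63 CPM). The share of all genes at the unadjusted threshold was not counted for these steps either.

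The 6 libraries of days 7 and 14 were also set against the 6 of days 1 and 2. This comparison was chosen after the members' values had been seen, so its p-values are not independent of that choice. In it 2 of 10 members rose, where 7.99% of all genes tested rose, and 1 of 10 fell, where 7% of all genes fell. Grem1 had 1.61 to 4.38 CPM at days 7 and 14 and 0 to 1.08 CPM at days 1 and 2, with no overlap, and its log2 fold change was 4.41 ± 1.07 (95% interval 2.16 to 6.66, adjusted p = 0.00931). Smad7 had 4.01 to 8.32 CPM at days 7 and 14 and 9.30 to 18.5 CPM at days 1 and 2, with no overlap, and fell by 1.05 ± 0.28 on the log2 scale (95% interval of the log2 fold change -1.63 to -0.468, adjusted p = 0.0151). Tgfb2 had 3.99 to 29.96 CPM at days 7 and 14 and 1.35 to 4.90 CPM at days 1 and 2, with some overlap, and its log2 fold change was 1.83 ± 0.51 (95% interval 0.757 to 2.9, adjusted p = 0.0211).

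Grem1 and Smad7 passed that comparison in all 12 fits without 1 library, where Grem1 took log2 values from 4.04 to 6.42 and Smad7 from -1.21 to -0.93. Tgfb2 did not pass without day 7 replicate 1 (log2 1.10, adjusted p = 0.113), day 2 replicate 1 (1.68, adjusted p = 0.0521) or day 2 replicate 3 (1.67, adjusted p = 0.052). With library totals alone as scaling, Smad7 was at -0.74 (adjusted p = 0.126), where the median of all genes moved by 0.297. Bmp7, at 6.16 CPM late and 3.92 CPM early on average, had a log2 difference of 0.64 ± 0.33 (adjusted p = 0.213), and Smad3, at 16.4 CPM late and 22.9 CPM early, had -0.49 ± 0.28 (adjusted p = 0.257). The log2 difference of Tgfbr1 was 0.083 ± 0.18 and that of Tgfbr2 0.047 ± 0.21, with 95% intervals of -0.296 to 0.463 and -0.388 to 0.482.

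**Figure D3:**
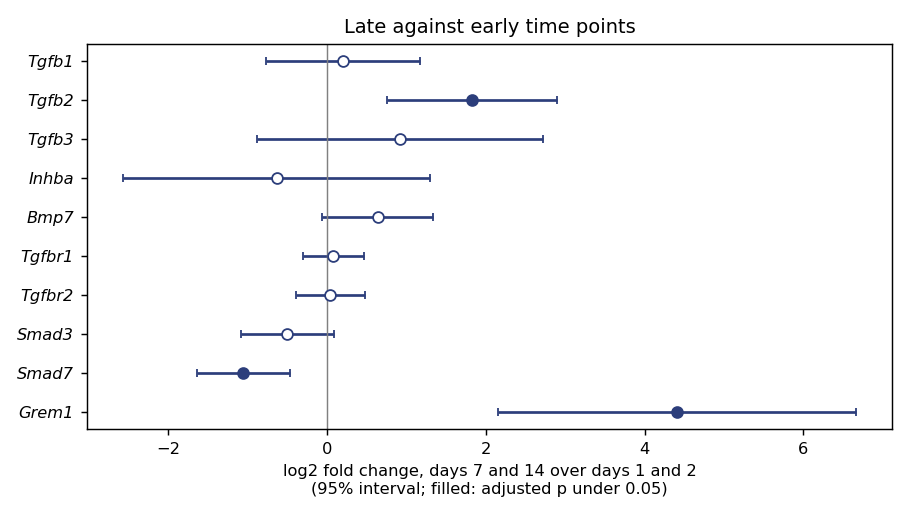
Fitted log2 fold change of each member in the 6 libraries of days 7 and 14 over the 6 libraries of days 1 and 2, with 95% intervals and filled points where the adjusted p was under 0.05. Grem1 (4.41) and Tgfb2 (1.83) lie to the right of 0 and Smad7 (-1.05) to the left, and both receptors lie close to 0.

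Per kilobase of exon (CPM per kb, with exon lengths from GENCODE M21, a later build than the counts), both receptors had the highest mean levels of the members in every group. In untreated kidney the level was 5.67 ± 0.647 CPM per kb for Tgfbr2, 4.39 ± 0.527 for Tgfbr1, 2.81 ± 1.20 for Smad3, 1.75 ± 0.0658 for Bmp7 and 1.10 ± 0.0474 for Smad7. Tgfb2, Tgfb3, Tgfb1, Grem1 and Inhba followed at 0.273, 0.189, 0.138, 0.0823 and 0.00654 CPM per kb. Neighbours in this order overlapped in their libraries except Tgfbr2 over Tgfbr1, Bmp7 over Smad7 and Smad7 over Tgfb2. At day 1 Tgfbr1, at 7.40 ± 0.547 CPM per kb, lay above Tgfbr2, at 5.51 ± 0.757, with no overlap, and Smad7, at 3.29 ± 0.882, lay above Bmp7, at 1.07 ± 0.401, with no overlap. At day 7 Tgfb2, at 2.28 CPM per kb, ranked above Smad7, at 1.48, and overlapped with it, its highest library being day 7 replicate 1. At day 14 Grem1, at 0.901 ± 0.208 CPM per kb, overlapped with Tgfb2, at 0.871 ± 0.244, and with Smad7, at 1.25 ± 0.433.

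The ratio of the highest to the lowest group mean was 8.38 for Tgfb2 (day 7 over untreated), and 3.19 (day 14 over untreated) without day 7 replicate 1. It was 3.01 for Tgfb1, 2.98 for Smad7, 2 for Tgfbr1, 1.68 for Smad3 and 1.52 for Tgfbr2. For Bmp7 it was 2 (untreated over day 2), and 3.29 without day 2 replicate 3. No ratio is given for Grem1, Inhba and Tgfb3, whose lowest groups rest on few reads.

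Among genes with a mean of at least 5 CPM, those whose log2 CPM ran most like a member's over the 18 libraries were listed by Pearson r, as a description without a test, since all points share libraries, depth and groups. Each trio was picked as the highest of 7939 or 7940 candidate genes, a choice that by itself favours high r values. For Tgfbr1 they were Muc1 (0.892), Col4a2 (0.885), a chain of basement membrane collagen, and Ckap4 (0.851). For Smad7 they were Fga (0.908), a fibrinogen chain, Rpl12 (0.873) and Tuba1b (0.871). For Tgfb2 they were Rap2a (0.846), Thbs1 (0.781), which encodes the TGF-beta activator thrombospondin 1, and Fcer1g (0.774). For Grem1 they were Sned1 (0.834), Dnmt3a (0.814) and Itga1 (0.804). The 3 most like each of the other members had r from 0.707 to 0.817: Fndc3b, Plekha1 and Nin for Tgfb1, Homez, Polr2c and Kat6b for Tgfb3, Depdc5, Dysf and Fhod3 for Inhba, Tkt, Micu3 and Wdr45 for Bmp7, Fnip2, Phactr2 and Tmem127 for Tgfbr2, and Cap1, Zkscan17 and the TGF-beta corepressor gene Tgif1 for Smad3.

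The members were set beside a wider list of 81 other genes of both pathways, of which 69 passed the filter on low counts. Of these 69, 16 rose and 2 fell at day 1, 16 rose and 2 fell at day 2, 14 rose and 1 fell at day 3, 12 rose and 1 fell at day 7, and 9 rose and 1 fell at day 14. That is 23.2, 23.2, 20.3, 17.4 and 13% risen, where 5.09, 7.19, 4.18, 3.87 and 1.24% of all genes tested rose, and 2.9, 2.9, 1.45, 1.45 and 1.45% fallen, where 5.56, 5.98, 3.43, 3.85 and 0.309% of all genes fell. Their median log2 fold change was 0.55, 0.30, 0.55, 0.77 and 0.61 at those days, beside 0.046, 0.034, 0.066, 0.064 and 0.041 over all genes tested. The counts by role below stand against the same shares of all genes. Of the 18, 18, 15, 13 and 10 calls, 8, 8, 7, 7 and 7 were made in all 6 fits without 1 library, and the values below are of genes among these. The list was chosen with earlier results of these data known.

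Of the 10 known TGF-beta response genes, 5, 6, 6, 6 and 6 rose and 0 fell at days 1, 2, 3, 7 and 14, where 5.09, 7.19, 4.18, 3.87 and 1.24% of all genes rose. Col1a1, a fibrillar collagen chain, had log2 fold changes of 3.18 ± 0.63 at day 1, 5.06 ± 0.69 at day 3 and 4.25 ± 0.66 at day 14 (adjusted p = 0.00276, 0.000214 and 0.002). Fn1, the gene of fibronectin, had 2.95 ± 0.37 at day 2 and 3.38 ± 0.37 at day 14 (adjusted p = 3.93e-05 and 0.000118), and it overlaps Apol7d on the other strand. Col1a1, Acta2 and Postn stand in the fibroblast marker list too.

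Of the 5 BMP response genes tested, 2, 2, 1, 0 and 0 rose and 0 fell at the successive days. Id3, an inhibitor of DNA binding induced by BMP, had a log2 fold change of 1.98 ± 0.42 at day 1 and 2.02 ± 0.43 at day 2 (adjusted p = 0.00474 and 0.00403). Id1 had 3.34 ± 0.63 at day 2 (adjusted p = 0.00175). Of the 9 other ligands tested, 2 rose and 1 fell at each of days 1, 2 and 3, 1 rose at day 7 and 0 changed at day 14. Gdf15, a stress-induced member of the family, rose by a log2 of 3.27 ± 0.65, 4.29 ± 0.68 and 2.98 ± 0.65 at days 1, 2 and 3 (adjusted p = 0.00282, 0.000387 and 0.00855). Gdf10 fell at day 2, with 4 reads there and 130 in untreated kidney (log2 -5.50 ± 1.33, adjusted p = 0.0101), and limma-voom did not call it (adjusted p = 0.118).

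Of the 10 other receptors and co-receptors tested, 1 rose at day 1, and 0 changed at later days. Of the 6 other SMADs, 1, 2, 1, 0 and 0 rose and 0 fell, and Smad2, the partner of Smad3, had a log2 fold change of 1.71 ± 0.33 at day 3 (adjusted p = 0.00345). Of the 11 extracellular antagonists and modulators tested, 1, 1, 1, 2 and 1 rose and 1 fell, at day 1. Fst, whose product follistatin binds activin, had a log2 fold change of 2.95 ± 0.61 at day 1 (adjusted p = 0.00359), with Gm47040 on the other strand, and Fstl1 had 1.76 ± 0.35 at day 7 and 2.22 ± 0.35 at day 14 (adjusted p = 0.00397 and 0.00225). A fit on the day 14 and untreated libraries alone did not call Fstl1 (adjusted p = 0.0507). Of the 7 intracellular brakes, 2, 2, 1, 0 and 0 rose and 0 fell, and Pmepa1, which like Smad7 dampens TGF-beta signalling, had 1.75 ± 0.35 at day 1 (adjusted p = 0.00266).

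Of the 11 genes of latency and activation, 2, 1, 2, 3 and 2 rose and 0, 1, 0, 1 and 1 fell at days 1, 2, 3, 7 and 14. Itgb6, the epithelial integrin subunit that releases latent TGF-beta, had 46.5, 46.9 and 44.6 CPM at day 14, against 134, 153 and 146 CPM in untreated kidney. The groups did not overlap, and the log2 fold change was -1.65 ± 0.24 (adjusted p = 0.00105). Ltbp2, of the latent TGF-beta binding protein family, had 3.16 ± 0.64 at day 7 (adjusted p = 0.00465), with D030025P21Rik on the other strand.

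**Figure D4:**
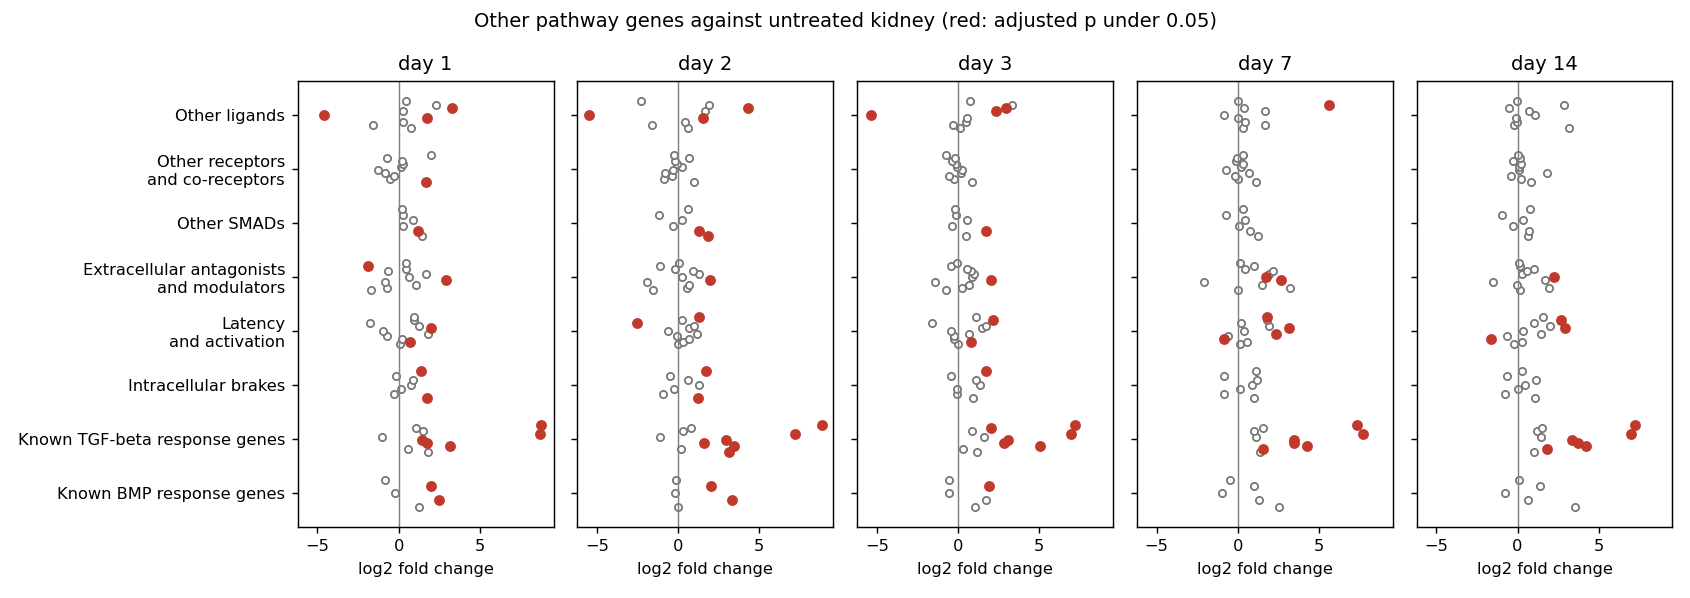
Fitted log2 fold change against untreated kidney of the 69 other pathway genes tested, by role (rows) and by day (panels), red where the adjusted p was under 0.05 and open where not. The TGF-beta response genes hold 5 or 6 red points in every panel and the other receptors hold 1 in all.

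Markers of the kidney's cell types shifted over the same days, as the plot of summed marker levels shows for 4 lists. The proximal tubule sum was 632 to 754 CPM at day 1, 905 to 960 at day 2 and 1228 to 2364 at day 14, against 3014 to 3810 CPM in untreated kidney, with 4, 5, 5, 5 and 1 of 5 markers fallen at the successive days. The loop and distal tubule sum was 442 to 756 CPM at day 3, 1249 to 1368 at day 7 and 1547 to 2088 at day 14, with 5, 4, 5, 0 and 0 of 5 fallen. The endothelial sum (Pecam1, Cdh5, Kdr, Emcn, Tek) was 14.5 to 16.5 CPM at day 2 and 59.9 to 84.8 CPM at day 14, against 55.9 to 112 CPM in untreated kidney, with 3, 4, 4, 1 and 0 of 5 fallen. The podocyte sum was 41.5 to 58.9 CPM at day 2, against 91.3 to 145 CPM in untreated kidney, with 0, 2, 1, 1 and 0 of 5 fallen, and the collecting duct sum was 9.63 to 20.3 CPM at day 1, against 34.1 to 82.5 CPM, with 3, 2, 0, 0 and 0 of 4 fallen. T cell markers summed to 1.27 to 16.3 CPM over all libraries, with 1 of 5 fallen at days 1, 2 and 7, and B cell, neutrophil, platelet, and adrenal and fat markers reached at most 2.82, 2.49, 3.36 and 11.2 CPM in any library. Of the 4 B cell markers 0 passed the filter and could be tested, and of the 2 of 5 neutrophil, 3 of 4 platelet and 3 of 5 adrenal and fat markers tested 0 were called. The part of these shifts in the members' values was not tested.

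**Figure D5:**
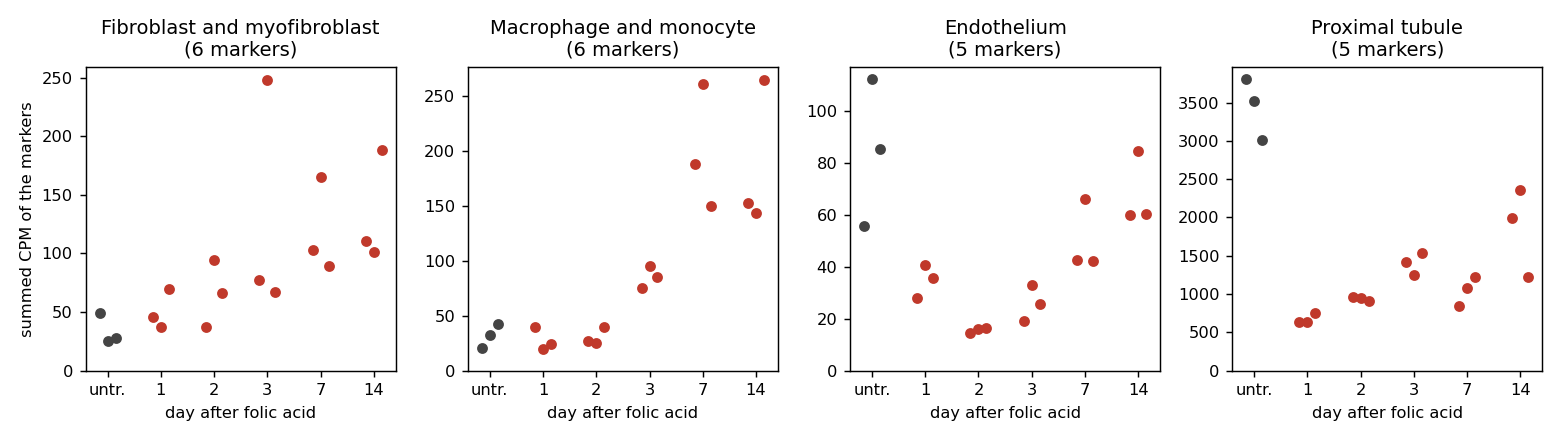
Summed CPM of 4 marker lists in each library, by untreated kidney (dark) and day after folic acid (red). The macrophage sums of days 3, 7 and 14 all lie above every earlier one, the median fibroblast sum is highest from day 3 on, the proximal tubule sum is lowest at day 1 and the endothelial sum is lowest at day 2.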

How the data were processed

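Counts of reads per gene were deposited for 18 libraries of whole mouse kidney RNA. Per the submitters' processing notes, the authors trimmed reads with cutadapt, aligned them with TopHat2 2.07 to build NCBIM37, counted them with HTSeq and normalized with DESeq; the strand setting is not given in the sources used here. The normalized tables were not used. The 5 tallies of reads assigned to no gene, 34.5 to 51.3% of all tallied reads per library, were left out of library sizes; 18.4 to 28.5% of all tallied reads aligned to more than 1 place, so genes with near-identical copies may be undercounted. Symbols came from GENCODE M21 by gene identifier, for 32919 of 37991 identifiers. That annotation and the RefSeq promoter windows belong to later builds than the counts and served for names, chromosomes, exon lengths, overlaps and sequences only.

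One edgeR 4.0.16 fit over all libraries and 6 groups (quasi-likelihood, TMM, filterByExpr) gave every F test on the counts. The contrasts were each day against untreated, each time against the time before, any difference across the groups and, added after the members' values were seen, days 7 and 14 against days 1 and 2. A gene was called at a Benjamini-Hochberg adjusted p under 0.05 over 16824 genes; tests were two-sided. Levels are TMM-scaled CPM (reads per 1e6). SE was derived from the F test, as the absolute log2 fold change divided by the square root of its F value, and the intervals rest on it. Intervals are 95%, and the limits from 3 reads cover counting error only.

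The members, gene lists and tests were chosen with earlier results of these data known. Every member is named, with fold and p where it passed. From the wider list, up to 4 called genes per role with the largest change could be named; those printed with values also passed in all 6 fits without 1 library, a limit added after the values were seen. A gene of that list that stands in its counts is not reported here by name. Marker lists are given whole, and the 3 genes most like each member by Pearson r of log2 CPM (prior count 2).

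Alternatives were RLE size factors, library totals alone, mitochondrial genes left out, no low-count filter (at least 1 read), DESeq2 1.42.0, limma-voom (limma 3.58.1), a replicate-number block, only the groups compared, and each library left out. A library left out leaves 2 in its group, with the spread pooled over all groups. The filter was applied anew in each edgeR fit that used it, so a fit on other libraries may test other genes. Scripts were tested on simulated counts. R 4.3.3, Python 3.11.15, pandas 2.3.3 and matplotlib 3.10.9 were used.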

Additional observations from a re-analysis of the deposited data

Results flagged for a closer look

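In the comparison of days 7 and 14 with days 1 and 2 (edgeR, 6 libraries each), 3 members passed. The comparison was formed after the members' values were seen, so it restates the pattern that prompted it and is no independent test. Grem1, the BMP antagonist, had a log2 fold change of 4.41 (adjusted p = 0.00931), and Tgfb2, a TGF-beta ligand, had 1.83 (adjusted p = 0.0211). Smad7, the inhibitor of the receptor, had -1.05 (adjusted p = 0.0151), and -0.74 (adjusted p = 0.126) with library totals alone as scaling. All 6 late libraries were above all 6 early ones for Grem1, and all 6 were below them for Smad7. For Tgfb2 the groups overlapped, and without day 7 replicate 1 the log2 fold change was 1.10 (adjusted p = 0.113).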

How the results depend on the processing

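In the comparisons between groups, no member called by edgeR, and none of the called genes of the wider list, changed direction in any alternative that gave it an adjusted p. Grem1 at day 3 and late against early, and Gdf10 at days 2 and 3, had 7 such alternatives where other calls had 8. The test across the 6 groups has no direction. The count of members called across the 6 groups was 3, stayed between 2 and 3 when 1 library was left out, and was 1 with the replicate block. At day 1 it was 1, and 0 to 1 without 1 library. At day 2 it was 0, with 1 for library totals alone, 2 for DESeq2 and 0 to 1 without 1 library. At day 3 it was 2, with 1 each for RLE size factors, mitochondrial genes left out, no low-count filter and DESeq2, 0 each for limma-voom, the replicate block and only the groups compared, 3 for library totals alone, and 0 to 1 without 1 library. At day 7 it was 2, with 3 for library totals alone, 1 for only the groups compared and 0 to 2 without 1 library. At day 3 against day 2 it was 0, with 1 without the low-count filter. The counts over all genes moved too. Library totals alone called 2101, 2238 and 2565 genes at days 2, 3 and 7, against 2216, 1280 and 1298 in the main fit. DESeq2 called 3001 genes at day 2. The other alternatives named for day 3 called 1040 to 2160, and only the groups compared called 1440 at day 7. Without the filter, 388 genes were called at day 3 against day 2, and 42 in the main fit. The cause of these changes was not tested. Same-numbered libraries did not deviate together over all genes tested (correlations of -0.0543 to 0.0416 over 45 pairs, median 0.00111). Such a correlation cannot exclude a pairing in single genes, and differently numbered pairs were not compared. The replicate block ended the calls of Tgfb2 and Smad7 across the groups (adjusted p = 0.0811 and 0.0542) and of Tgfbr1 and Grem1 at day 3 (0.0571 and 0.0593). DESeq2 gave no adjusted p for Grem1 across the groups, at day 3 or late against early, so its counts there leave Grem1 out. Library totals alone moved the median log2 fold change of all genes by 0.143, 0.254, 0.577, 0.673 and 0.317 at days 1, 2, 3, 7 and 14 and the share of higher calls from 47.8, 54.6, 54.9, 50.2 and 80% to 56.8, 69, 91.2, 93.2 and 95.9%. Depth limits Inhba, Tgfb3, Tgfb1 and Grem1, which rest on 2, 39, 51 and 17 untreated reads.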
